A study of Mus musculus with 9 samples.

Results

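Polycomb, histone-modifying and chromatin-remodelling genes were compared between adult mouse cardiac fibroblasts, cells labelled as cardiac fibroblasts dedifferentiated by a protein-based method, and mouse embryonic stem (ES) cells. The list holds 44 genes, taken by symbol from the annotation of the array, with the brightest row used where a gene had more than 1. Of these, 42 had a row that the annotation gives to that gene alone, among 19938 genes measured in all. Cbx6 shares its row with other genes and Suv39h1 has none in that annotation, so neither is reported here.

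All samples carry the strain label C57BL/6. The 3 groups are cardiac fibroblasts from adult mice, dedifferentiated cardiac fibroblasts and C57 ES cells, each of 3 samples and with 1 Affymetrix Mouse Gene ST array for the total RNA of each. The labels name neither the proteins and times of the dedifferentiation nor the ES line, give no age beyond adult and no sex, and do not state if the 3 samples were grown or taken separately. All p-values here therefore rest on the spread between arrays, which could be technical alone, and precision is bounded by n = 3. Fibroblast samples also have ES cells in their source label, and their titles were followed.

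Polycomb proteins work in 2 complexes that keep developmental genes silent. Polycomb repressive complex 2 (PRC2) methylates histone H3 at lysine 27, and Polycomb repressive complex 1 (PRC1) ubiquitinates histone H2A and compacts chromatin. Remodelling complexes of the SWI/SNF (BAF), CHD, INO80 and TIP60 families use ATP to move or exchange nucleosomes, and their subunits come in alternative versions that different cell types choose between. ES cells are known for a BAF complex built on Smarca4, Smarcc1 and Smarcd1, and for PRC1 containing Cbx7.

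Marker genes set both other groups apart from fibroblasts. All 10 fibroblast markers tested, such as Col1a1 and Tcf21, were lower in dedifferentiated cells and in ES cells than in fibroblasts, and all 8 ES markers, such as Pou5f1 and Nanog, were higher in both. Between dedifferentiated and ES cells 0 of the 8 ES markers passed the limma test (2 had an unadjusted p under 0.05), and 3 of the 10 fibroblast markers were higher in dedifferentiated cells. The array medians lay between 4.647 and 4.859 (log2). Other values moved with the groups. Of 9 cycling-cell markers, 6 were higher in dedifferentiated cells and 7 in ES cells than in fibroblasts, and their mean level was 8.39 to 8.51 on fibroblast arrays, 9.65 to 9.76 on dedifferentiated arrays and 9.63 to 9.81 on ES arrays (log2). Of 8 macrophage markers, 3 were lower and 1 higher in both, with a mean level of 5.67 to 5.80 in fibroblasts, 4.26 to 4.34 in dedifferentiated cells and 4.42 to 4.51 in ES cells; with no size required 7 were lower in both. Lyz2, the lysozyme of myeloid cells, was at 8.85 ± 0.20 on fibroblast arrays and 3.20 ± 0.16 and 3.34 ± 0.05 on dedifferentiated and ES arrays (log2 mean ± SD, n = 3), a difference of -5.65 and -5.52. C1qa differed by -1.93 and -1.74, and the leukocyte gene Ptprc, at 4.42 ± 0.12 on fibroblast arrays, by -0.83 and -0.67. Cd68 went the other way and was the marker higher in both, by 1.05 and 1.75. Of 7 endothelial markers, 3 were higher and 1 lower in dedifferentiated cells and 1 and 1 in ES cells. Pecam1 rose in both, by 2.44 and 2.48 log2 units, and Emcn fell in both, at -1.36 and -1.51. Cdh5 (1.16 log2 units) and Tek (1.06) rose in dedifferentiated cells against fibroblasts, and Cdh5 was also higher than in ES cells, by 1.38. Of 8 cardiomyocyte markers 0 passed the limma test with the size required in either comparison with fibroblasts (5 and 6 had an unadjusted p under 0.05). With no size required, 5 and 6 of them had an adjusted p under 0.05. Xist, the noncoding RNA of an inactive X chromosome, was at 7.24 to 7.39 on fibroblast arrays and at 2.78 to 3.49 on all others, and Y-linked Eif2s3y was at 3.45 to 3.69 and 7.47 to 8.18. By Xist and Eif2s3y the dedifferentiated arrays stood with the ES arrays and apart from the fibroblast arrays. Y-linked Uty split the groups the same way, at 3.52 to 4.10 on fibroblast, 6.31 to 6.40 on dedifferentiated and 5.46 to 5.81 on ES arrays. Y-linked Kdm5d did not follow them. It was dim in all groups, with means of 3.11 on fibroblast, 3.74 on dedifferentiated and 3.25 on ES arrays. Its ES arrays overlapped with the fibroblast arrays and lay below the dedifferentiated arrays. The fibroblast and dedifferentiated samples thus differ in sex-linked transcripts, and in their comparison this difference and the dedifferentiation cannot be told apart. These sex-linked genes were chosen after their values were seen. The part of these values in the results below was not tested. In such bulk RNA, fewer cells of a type and less RNA per cell cannot be told apart.

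Many proteins on the list act at CpG islands, stretches rich in the base pair CG: Kdm2b binds unmethylated CG pairs and brings PRC1 there. RefSeq promoters (GRCm38.p6) were found for 37 of the 42 genes, 51 promoters in all, and the 250 bases before each start were read. Of these 51, 44 (86.3%) held at least 10 CG pairs, against 53.7% of the 19177 promoters of all genes measured. All genes measured include many dim ones, whereas 41 of the 42 listed genes had a mean of at least 6 in some group. No share was computed for genes at that level, so the difference cannot be read as particular to the list. The share was 86.4% of 22 promoters for the genes that rose in both comparisons with fibroblasts, and 4 of 4 promoters for those that fell in both. The 4 sequences below belong to genes on which the results turn, Phc1 and Cbx7, which rose, and the BAF pair Smarcc1 and Smarcc2, which went opposite ways; CG pairs are in capitals. They span the range from 8 CG pairs in Phc1 (chr6:122340228-122340477, minus strand) through 21 in Smarcc1 (chr9:110131774-110132023, plus strand) and 23 in Cbx7 (chr15:79932647-79932896, minus strand) to 40 in Smarcc2 (chr10:128458986-128459235, plus strand). The 4 were picked by hand, and a link between CG pairs and direction was not tested. Over the whole list, promoters of genes that rose in both comparisons held 2 to 38 CG pairs. Those of genes that fell in both held 21 to 40, so the ranges overlapped.
Phc1: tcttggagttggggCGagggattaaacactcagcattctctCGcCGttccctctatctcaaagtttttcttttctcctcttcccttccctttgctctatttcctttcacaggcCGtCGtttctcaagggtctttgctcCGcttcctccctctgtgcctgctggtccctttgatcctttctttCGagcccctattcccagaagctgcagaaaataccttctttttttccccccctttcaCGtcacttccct
Cbx7: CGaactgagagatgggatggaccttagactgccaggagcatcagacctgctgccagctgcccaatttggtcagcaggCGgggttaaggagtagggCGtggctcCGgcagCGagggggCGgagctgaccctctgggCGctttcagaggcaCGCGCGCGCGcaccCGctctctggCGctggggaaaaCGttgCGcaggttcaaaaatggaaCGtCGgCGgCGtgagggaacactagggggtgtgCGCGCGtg
Smarcc1: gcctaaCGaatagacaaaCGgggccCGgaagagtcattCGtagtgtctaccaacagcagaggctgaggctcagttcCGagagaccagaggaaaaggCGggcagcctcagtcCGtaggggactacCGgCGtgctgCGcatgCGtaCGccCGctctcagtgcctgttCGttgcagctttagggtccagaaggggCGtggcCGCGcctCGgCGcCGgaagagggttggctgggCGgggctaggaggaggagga
Smarcc2: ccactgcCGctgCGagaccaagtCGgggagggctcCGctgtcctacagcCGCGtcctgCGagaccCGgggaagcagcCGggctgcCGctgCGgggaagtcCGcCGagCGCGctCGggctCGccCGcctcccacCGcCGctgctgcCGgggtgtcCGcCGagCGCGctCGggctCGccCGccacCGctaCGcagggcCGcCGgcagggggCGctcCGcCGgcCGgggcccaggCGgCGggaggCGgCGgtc

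Across the list, most genes stood above their fibroblast level in dedifferentiated cells, and the 4 that fell were Bmi1 of PRC1 and Smarca2, Smarcc2 and Smarcd3 of BAF. At an adjusted p under 0.05 and a difference of at least 1 log2 unit, 18 of 42 genes rose and 4 fell; of all genes, 8.79% rose and 10.1% fell (18.9% either way). In ES cells 20 rose and 4 fell, against 8.85% and 10.4% of all genes (19.2% either way). The array also holds many dim genes, and among the 9606 genes with a mean of at least 6 in some group the shares were 16.8% higher and 18.5% lower in dedifferentiated cells, and 16.8% and 19.1% in ES cells; 41 of the 42 listed genes passed that level. The median difference of the 42 genes was 0.86 log2 units in dedifferentiated cells and 0.91 in ES cells, beside 0.01 and 0.02 over all genes. Without a size required, 31 were higher and 7 lower in dedifferentiated cells (25% and 22.4% of all genes, 47.4% either way, and 78.0% either way above the mean of 6), and 32 and 8 in ES cells (26.1% and 22.9% of all genes, 49% either way, and 79.2% above that mean). Both comparisons use the same 3 fibroblast arrays, so their values are given side by side and are not separate evidence. The list was chosen with earlier results of these data known. The choice can itself raise these counts and medians above those of all genes, so they are not a test of the list.

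**Figure D1:**
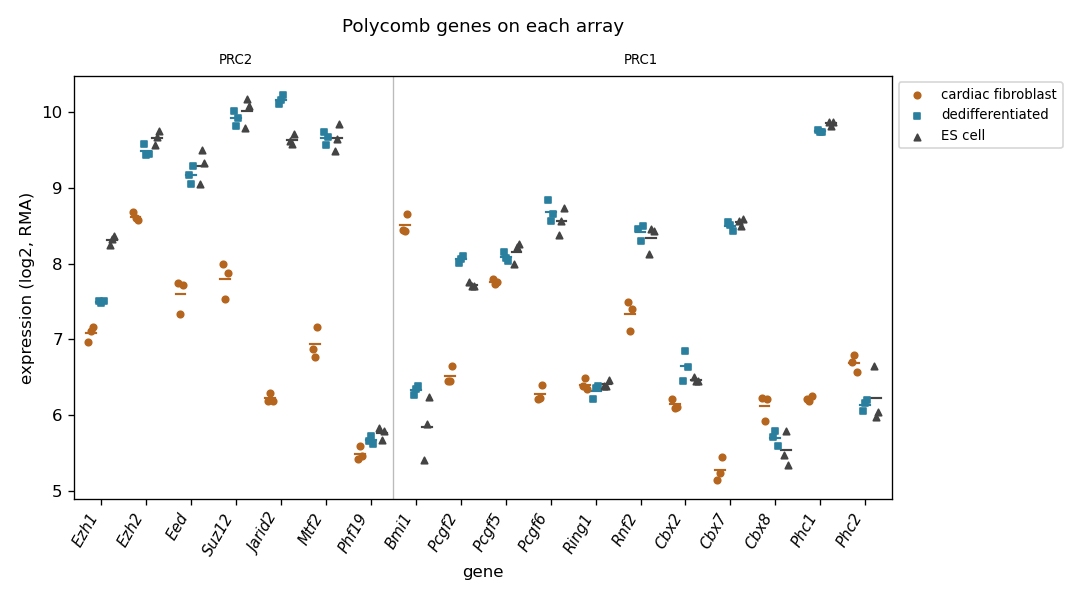
Expression of 7 PRC2 and 11 PRC1 genes (log2, vertical axis) on each of the 9 arrays; points are arrays, short bars are group means, and colours and symbols mark the groups. Jarid2, Mtf2, Suz12, Phc1, Cbx7 and Pcgf6 sit far above their fibroblast values in both other groups, and Bmi1 sits below them.

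PRC2 genes that passed the test all rose. Of 7 listed, 4 rose in dedifferentiated cells and 6 in ES cells, and none fell by limma (6 and 7 were higher with no size required). Jarid2, an accessory subunit that helps PRC2 find its targets, read 6.19, 6.29 and 6.18 on the fibroblast arrays, 10.11, 10.16 and 10.23 on the dedifferentiated arrays and 9.62, 9.58 and 9.72 on the ES arrays (log2). It rose by 3.95 log2 units in dedifferentiated cells (15.4-fold, 95% interval 3.78 to 4.11, adjusted p = 5.8e-12), more than any other gene listed, and by 3.42 in ES cells (3.25 to 3.58). The 3 groups did not overlap, and the dedifferentiated cells stood highest. Mtf2, which tethers PRC2 to CpG islands, read 6.87, 6.77 and 7.16 on fibroblast arrays, 9.73, 9.56 and 9.68 on dedifferentiated arrays and 9.49, 9.65 and 9.85 on ES arrays. It rose by 2.73 log2 units in ES cells (6.64-fold, adjusted p = 3.2e-09) and by as much in dedifferentiated cells, where the 95% interval was 2.46 to 2.99. The dedifferentiated and ES arrays of Mtf2 overlapped.

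The differences of the core subunits were smaller than that of Mtf2. Suz12, which every PRC2 contains, read 7.99, 7.53 and 7.87 on fibroblast arrays, 10.01, 9.82 and 9.92 on dedifferentiated arrays and 9.79, 10.18 and 10.08 on ES arrays (log2). Its rise was 2.12 log2 units (95% interval 1.83 to 2.41) in dedifferentiated cells and 2.22 (1.93 to 2.5) in ES cells. Eed, which reads the H3K27 methyl mark, rose by 1.57 (1.27 to 1.87) and 1.69 (1.39 to 2). A dim further row of Eed did not move, and the mean of both rows stayed under the required size, at 0.79 and 0.88. Ezh2, the main methyltransferase of PRC2 in dividing cells, was at 8.61 ± 0.06 on fibroblast arrays, 9.49 ± 0.08 on dedifferentiated arrays and 9.66 ± 0.10 on ES arrays (log2 mean ± SD, n = 3 each). Its difference of 0.87 log2 units in dedifferentiated cells (95% interval 0.7 to 1.05, adjusted p = 2.1e-06) was below the required size, and that of 1.05 in ES cells (0.87 to 1.23) reached it. Ezh2 is also known to follow proliferation, and the cycling-cell markers above moved the same way; their part in this difference was not tested.

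Ezh1, the weaker methyltransferase found mostly in non-dividing cells, separated dedifferentiated from ES cells. It read 6.97, 7.11 and 7.16 on fibroblast arrays, 7.51, 7.48 and 7.51 on dedifferentiated arrays and 8.25, 8.33 and 8.37 on ES arrays (log2). The groups stood in that order without overlap, and the dedifferentiated cells were nearer to the fibroblasts. The difference from fibroblasts was 0.42 log2 units in dedifferentiated cells (0.25 to 0.59, adjusted p = 0.00063) and 1.24 in ES cells (1.07 to 1.4, adjusted p = 6.8e-08). Phf19, which binds H3K36 methylation for PRC2, was dim and differed little, by 0.18 in dedifferentiated cells (adjusted p = 0.095) and 0.27 in ES cells (adjusted p = 0.013). Among the 4 other PRC2 genes listed with these, Phf1, Aebp2, Rbbp4 and Rbbp7, none was called in any of the 3 comparisons by limma, although 3 had an unadjusted p under 0.05 in dedifferentiated cells against fibroblasts, 2 in ES cells against fibroblasts and 1 between dedifferentiated and ES cells. With no size required, 3, 2 and 0 of them had an adjusted p under 0.05 in the same comparisons.

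PRC1 genes were split by subunit. Of 11 listed, 5 rose and 1 fell in each comparison with fibroblasts. The Pcgf genes, which define the variants of PRC1, went both ways. Bmi1 (Pcgf4), known for silencing the Cdkn2a locus and for self-renewal of adult stem cells, read 8.45, 8.43 and 8.66 on fibroblast arrays, 6.26, 6.34 and 6.38 on dedifferentiated arrays and 5.40, 5.88 and 6.24 on ES arrays (log2). It fell by 2.18 log2 units in dedifferentiated cells (95% interval -2.56 to -1.81, adjusted p = 4.9e-07) and dropped by 2.67 in ES cells (-3.04 to -2.3). Every fibroblast array lay above every other array, and the ES arrays spread widely. Pcgf2 (Mel18), its closest relative, went the other way, from 6.45, 6.44 and 6.65 to 8.01, 8.06 and 8.10 in dedifferentiated cells and 7.75, 7.70 and 7.70 in ES cells. Its rise was 1.54 log2 units (1.37 to 1.71) and 1.2 (1.03 to 1.38).

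Pcgf6, of a PRC1 variant that acts with the E2F6 and Max factors on germ cell genes, rose by 2.41 log2 units in dedifferentiated cells (5.32-fold, adjusted p = 4.7e-09) and 2.28 in ES cells. It read 6.21, 6.23 and 6.39 on fibroblast arrays, 8.84, 8.56 and 8.66 on dedifferentiated arrays and 8.38, 8.56 and 8.73 on ES arrays. The dedifferentiated and ES arrays overlapped. Pcgf5 differed by 0.33 and 0.4, below the required size. Of the catalytic ubiquitin ligases, Rnf2 (Ring1B) was at 7.33 ± 0.19 on fibroblast arrays, 8.42 ± 0.10 on dedifferentiated arrays and 8.34 ± 0.18 on ES arrays, and its rises of 1.09 and 1.01 log2 units were just past the required size. Rnf2 was below that size without fibroblast replicate 2 (0.98 and 0.9) and, in ES cells, without ES replicate 2 (0.95) or 3 (0.96) or with each array centred on its median. Ring1, the other ligase, was level, at 6.40 ± 0.07, 6.31 ± 0.09 and 6.41 ± 0.05, and its difference lay between -0.26 and 0.08 in dedifferentiated cells and between -0.17 and 0.18 in ES cells (95% intervals).

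The Cbx genes encode the PRC1 subunits that bind methylated H3K27. Cbx7 read 5.14, 5.23 and 5.45 on fibroblast arrays, 8.55, 8.51 and 8.43 on dedifferentiated arrays and 8.56, 8.50 and 8.59 on ES arrays (log2). It rose by 3.23 log2 units in dedifferentiated cells (9.37-fold, 95% interval 3.03 to 3.42, adjusted p = 8.7e-11) and by 3.28 in ES cells (3.08 to 3.47). Its relatives, which are known to replace it as ES cells differentiate, differed by less than the required size. Cbx2 differed by 0.5 and 0.32, and Cbx8 by -0.42 (adjusted p = 0.015) and -0.59 (adjusted p = 0.0018). Cbx2 and Cbx8 are neighbours in the gene table of GRCm38.p6. Cbx2 was thus on the side of Cbx7 and Cbx8 on the opposite side.

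Phc1, a polyhomeotic subunit that links PRC1 complexes into larger bodies, read 6.21, 6.18 and 6.25 on fibroblast arrays, 9.77, 9.74 and 9.74 on dedifferentiated arrays and 9.87, 9.81 and 9.87 on ES arrays (log2). The rise was 3.54 log2 units (11.6-fold, 95% interval 3.39 to 3.68, adjusted p = 5.4e-12) in dedifferentiated cells and 3.64 (12.5-fold, 3.49 to 3.79) in ES cells, where it led the list. Phc2, its relative, was on the other side, at -0.55 log2 units (adjusted p = 0.011) and -0.47 (adjusted p = 0.024). Of 7 further PRC1 genes with a row, 2 rose and 2 fell in dedifferentiated cells, and 2 rose and 1 fell in ES cells. Rybp and Yaf2, paralogs that occupy the same place in variant PRC1, were among them. Rybp rose from 6.04, 6.26 and 6.23 to 8.66, 8.62 and 8.90 in dedifferentiated cells and to 8.68, 8.75 and 7.96 in ES cells (2.55 and 2.29 log2 units). Yaf2 fell from 8.10, 7.9955 and 8.18 to 6.83, 6.74 and 6.86 and to 6.22, 6.31 and 6.63 (-1.28 and -1.71). Phc3 fell by 1.33 in dedifferentiated cells and differed by -0.99 in ES cells, just short of the required size.

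**Figure D2:**
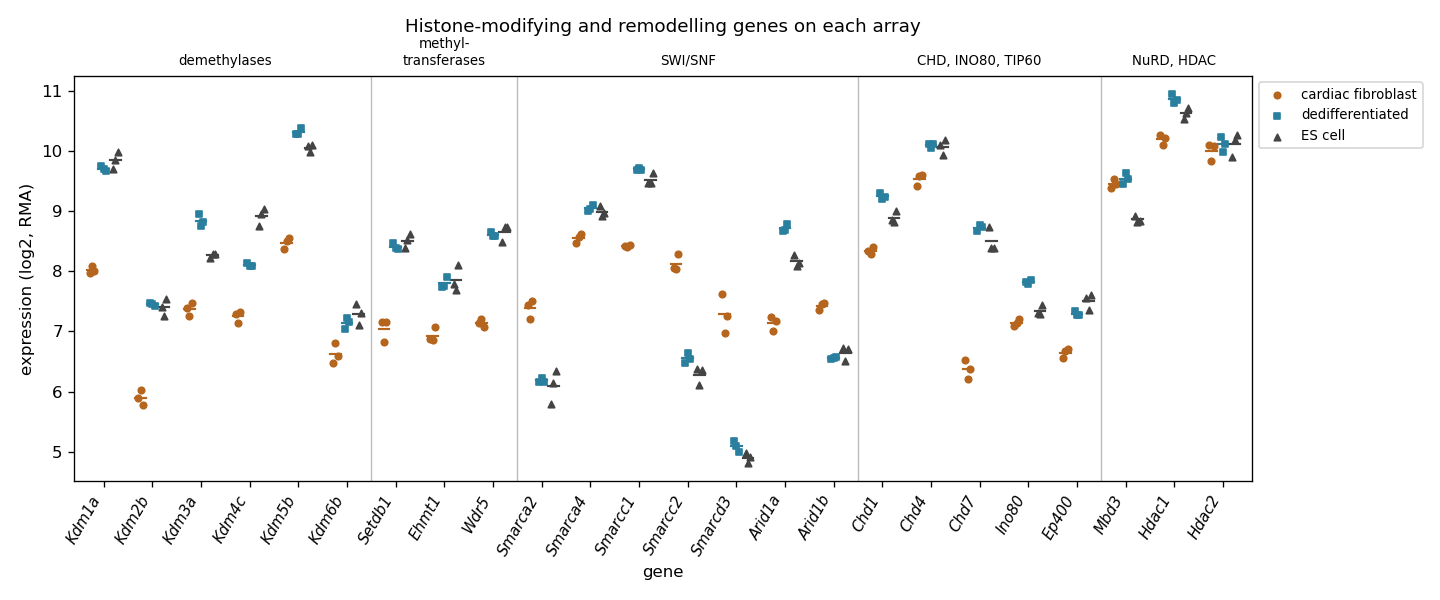
Expression of 6 demethylase, 3 methyltransferase, 7 SWI/SNF, 5 remodeller and 3 NuRD or deacetylase genes (log2, vertical axis) on each of the 9 arrays; points are arrays and short bars are group means. Within SWI/SNF, Smarcc1 and Arid1a rise from fibroblasts to the other groups while Smarca2, Smarcc2 and Smarcd3 fall; Mbd3 stands lower on the ES arrays only.

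The 6 listed histone demethylases stood above their fibroblast level. All 6 were higher with no size required, and 4 rose in each comparison. Kdm5b, which removes H3K4 methylation, read 8.38, 8.51 and 8.55 on fibroblast arrays, 10.28, 10.28 and 10.39 on dedifferentiated arrays and 10.08, 9.99 and 10.10 on ES arrays (log2). Its rise was 1.84 log2 units (95% interval 1.67 to 2.01) and 1.58 (1.41 to 1.75). Kdm1a (LSD1), which removes lower H3K4 methylation with CoREST and NuRD, rose by 1.69 (1.5 to 1.87) and 1.83 (1.64 to 2.02), from 7.96, 8.09 and 7.998 to 9.75, 9.70 and 9.66 and to 9.70, 9.85 and 9.99. Kdm2b, the CpG-binding demethylase of variant PRC1, rose by 1.55 (1.34 to 1.76) and 1.5 (1.3 to 1.71). In all 3 genes every fibroblast array lay below every other array.

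Kdm3a and Kdm4c, which remove H3K9 methylation, differed between dedifferentiated and ES cells. Kdm3a, which is also known as a target of hypoxia signalling, read 7.39, 7.25 and 7.47 on fibroblast arrays, 8.95, 8.75 and 8.81 on dedifferentiated arrays and 8.22, 8.29 and 8.29 on ES arrays, so that the dedifferentiated cells were highest. It rose by 1.47 log2 units in dedifferentiated cells (1.28 to 1.65) and differed by 0.9 in ES cells (0.71 to 1.08). Kdm4c had the reverse order, with 7.28, 7.14 and 7.33, then 8.15, 8.09 and 8.09, then 8.76, 8.95 and 9.04. It differed by 0.86 in dedifferentiated cells (0.66 to 1.05) and rose by 1.66 in ES cells (1.47 to 1.86). Kdm6b (Jmjd3), which removes H3K27 methylation and so opposes PRC2, differed by 0.52 and 0.67, under the required size. The 11 further demethylases did not share this: 1 rose and 1 fell in each comparison with fibroblasts, and with no size required 3 were higher and 1 lower in dedifferentiated cells (median difference 0.08 log2 units) and 7 higher and 2 lower in ES cells (median 0.27). X-linked Kdm6a (Utx), the other H3K27 demethylase, rose by 1.31 in dedifferentiated cells and differed by 0.93 in ES cells. Its Y-linked relative Uty, which was named after its value was seen, was higher by 2.63 and 1.9. Uty was dim on fibroblast arrays (3.52 to 4.10) and split the groups as Eif2s3y did. For Uty, the sex-linked difference between the samples and a change with dedifferentiation therefore cannot be told apart. Kdm3b rose by 1.28 in ES cells alone among the comparisons with fibroblasts (0.48 in dedifferentiated cells), and X-linked Phf8 fell, at -1.39 and -1.1.

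Of the 3 listed genes of histone methylation, 2 rose in each comparison. Setdb1, the H3K9 methyltransferase that silences endogenous retroviruses, read 7.15, 6.82 and 7.15 on fibroblast arrays, 8.47, 8.39 and 8.37 on dedifferentiated arrays and 8.39, 8.52 and 8.62 on ES arrays. It rose by 1.37 log2 units (1.14 to 1.59) and 1.47 (1.24 to 1.69). Wdr5, a core part of the H3K4 methyltransferase complexes, rose by 1.46 (1.27 to 1.65) and 1.51 (1.32 to 1.69). Ehmt1, which dimethylates H3K9 with Ehmt2, differed by 0.87 and 0.93, below the required size; without ES replicate 2 its difference in ES cells was 1.01. Of 22 further methyltransferase genes, 10 rose and 1 fell in dedifferentiated cells and 8 rose and 1 fell in ES cells. Suv39h2, an H3K9 methyltransferase, led in dedifferentiated cells with 2.54 log2 units (2.02 in ES cells), Kmt5c, an H4K20 methyltransferase, led in ES cells with 2.42 (1.56 in dedifferentiated cells), and the H3K4 monomethyltransferase Setd7 fell, at -1.36 and -1.16.

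In the BAF complex, Smarcc1 rose and its paralog Smarcc2 fell. Of 7 SWI/SNF genes listed, 2 rose and 3 fell in each comparison with fibroblasts, and all 7 had groups that did not overlap in either (39 of the 42 listed genes did not overlap in each comparison, beside 54.7% of all genes for dedifferentiated cells and 51.9% for ES cells, and beside 85.2% and 81.5% of genes with a mean of at least 6 in some group, where 92.7% of the 41 listed genes at that level did not). Smarcc1 (BAF155) read 8.41, 8.41 and 8.44 on fibroblast arrays, 9.69, 9.71 and 9.68 on dedifferentiated arrays and 9.47, 9.47 and 9.63 on ES arrays (log2). Its paralog Smarcc2 (BAF170), which occupies the same scaffold position, read 8.05, 8.04 and 8.29, then 6.47, 6.64 and 6.54, then 6.38, 6.10 and 6.36. Smarcc1 rose by 1.27 log2 units in dedifferentiated cells (95% interval 1.11 to 1.43, adjusted p = 3.3e-08) and by 1.1 in ES cells (0.94 to 1.26), while Smarcc2 fell, at -1.58 (-1.8 to -1.35, adjusted p = 1e-07) and -1.85 (-2.07 to -1.62). Smarcd3 (BAF60C), the version known from heart and muscle, read 7.62, 6.98 and 7.25 on fibroblast arrays, 5.18, 5.10 and 4.998 on dedifferentiated arrays and 4.98, 4.81 and 4.92 on ES arrays. Its differences were -2.19 (-2.49 to -1.89) and -2.38 (-2.68 to -2.08). Its paralog Smarcd1 (BAF60A), which is not among the 44 genes, rose by 2.73 and 2.2, from 6.86, 6.51 and 6.39 to 9.34, 9.22 and 9.39 and to 8.72, 8.84 and 8.81.

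Of the alternative ATPases, Smarca2 (BRM) read 7.44, 7.21 and 7.51 on fibroblast arrays, 6.17, 6.22 and 6.17 on dedifferentiated arrays and 5.79, 6.15 and 6.34 on ES arrays. It fell, at -1.2 log2 units (-1.49 to -0.92) and -1.29 (-1.58 to -1.01). Smarca4 (BRG1) differed in the other direction by 0.49 (0.32 to 0.66, adjusted p = 0.00018) and 0.44 (0.27 to 0.61), less than the required size. The DNA-binding subunits behaved likewise. Arid1a (BAF250A) read 7.24, 7.01 and 7.18 on fibroblast arrays, 8.68, 8.69 and 8.79 on dedifferentiated arrays and 8.28, 8.09 and 8.14 on ES arrays, rising by 1.58 (1.39 to 1.77) and 1.03 (0.84 to 1.22); the rise in ES cells was under the required size without fibroblast replicate 2 (0.96) or ES replicate 1 (0.97). Arid1b differed by -0.86 (-1.04 to -0.69) and -0.78 (-0.95 to -0.6). Of 14 further SWI/SNF genes, 3 rose and none fell in dedifferentiated cells, 2 rose and none fell in ES cells, and 11 had an unadjusted p under 0.05 in each.

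To ask whether paired subunits changed unequally, the difference between the 2 genes of a pair was taken within each array. Probe sets differ in sensitivity, so the size of such a difference on one array is not a ratio of molecules. A constant offset cancels in the shift between groups; unequal response of the probe sets, mainly near the dim end (Cbx7 at 5.27 on fibroblast arrays, Smarcd3 at 5.09 and 4.90 on dedifferentiated and ES arrays), does not, and its part was not tested. Of 15 pairs, 14 had both genes measured. In all 14 the arrays of fibroblasts did not overlap with those of either other group, and in 12 the shift was at least 1 log2 unit in each comparison. Of these 12, Rnf2 against Ring1 was barely at that size in ES cells, with a shift of 1.002. The pairs were chosen with earlier results known, and no share over other gene pairs was computed to set these counts against. With 3 arrays against 3 the exact two-sided permutation test can give no p under 0.1, which all 14 pairs had in both comparisons, with an adjusted p of 0.1235 over 42 tests.

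**Figure D3:**
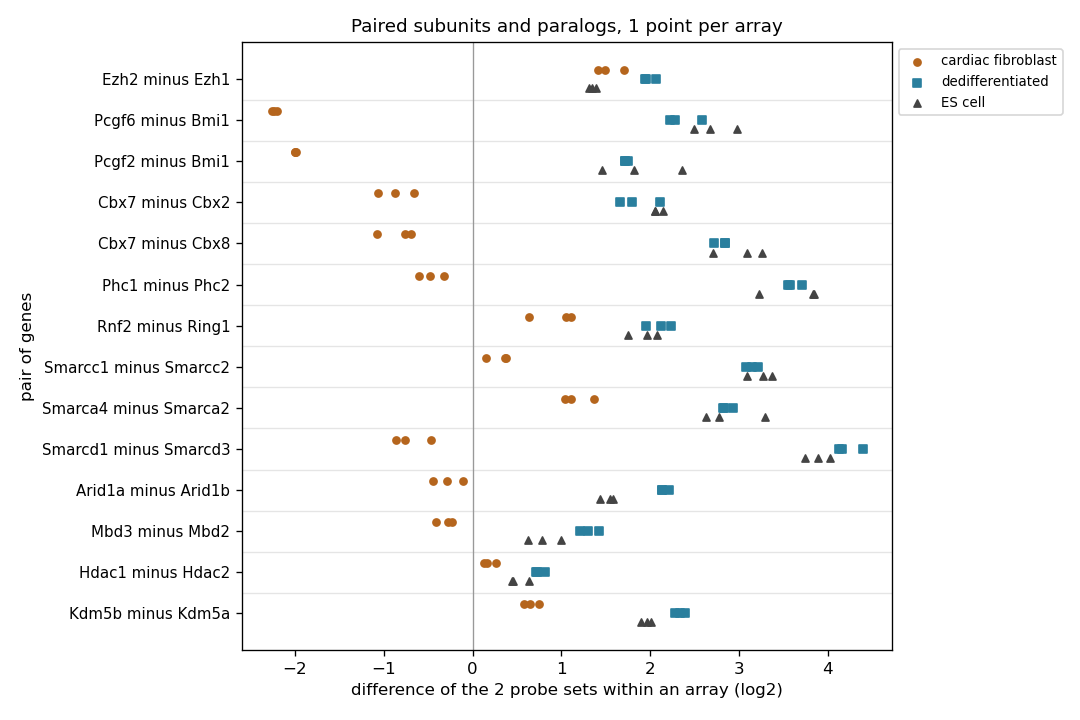
Within-array difference between the 2 genes of each pair (log2, horizontal axis), 1 point per array, with colours and symbols for the groups. The fibroblast points stand apart from both other groups in all 14 pairs; Ezh2 minus Ezh1 is the pair in which fibroblast and ES points lie closest, with dedifferentiated points to their right.

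The largest shifts were those of Smarcd1 against Smarcd3, where the within-array difference went from -0.69 ± 0.20 in fibroblasts to 4.22 ± 0.15 on dedifferentiated arrays and 3.89 ± 0.14 on ES arrays (mean ± SD of log2 differences, n = 3 a group), and of Pcgf6 against Bmi1, where it went from -2.24 ± 0.03 to 2.36 ± 0.20 and 2.72 ± 0.25. Phc1 against Phc2 shifted by 4.09 and 4.11 log2 units, Cbx7 against Cbx8 by 3.65 and 3.86, Pcgf2 against Bmi1 by 3.72 and 3.87, and Cbx7 against Cbx2 by 2.72 and 2.95. Smarcc1 against Smarcc2 went from 0.29 ± 0.13 to 3.14 ± 0.07 and 3.24 ± 0.14. Smaller shifts were those of Arid1a against Arid1b (2.44 and 1.81), Smarca4 against Smarca2 (1.7 and 1.73), Kdm5b against Kdm5a (1.68 and 1.3), Mbd3 against the methyl-CpG binder Mbd2 (1.62 and 1.11) and Rnf2 against Ring1 (1.17 and 1). Hdac1 against Hdac2 shifted by 0.56 and 0.33. Ezh2 against Ezh1 shifted in opposite directions, by 0.46 in dedifferentiated cells and by -0.19 in ES cells.

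Among the other remodellers, Chd7, which binds enhancers of active genes and is mutated in CHARGE syndrome, was the only listed gene to rise by at least 1 log2 unit. It read 6.52, 6.21 and 6.38 on fibroblast arrays, 8.67, 8.77 and 8.74 on dedifferentiated arrays and 8.74, 8.39 and 8.38 on ES arrays, and rose by 2.36 log2 units (2.11 to 2.6, adjusted p = 7.5e-09) and 2.14 (1.89 to 2.38). The array holds 30 rows for Chd7, and all 30 were higher by at least 1 log2 unit in both comparisons, by 1.64 to 3.94 in dedifferentiated cells and 1.3 to 3.68 in ES cells. These rows read 1 gene on the same arrays and are not replicates. Chd1, needed for the open chromatin of ES cells, differed by 0.91 (0.74 to 1.08) and 0.55 (0.38 to 0.72). Chd4, the ATPase of NuRD, differed by 0.56 and 0.54, the TIP60 ATPase Ep400 by 0.65 and 0.86, and Ino80 by 0.67 and 0.2. All 5 were higher in both comparisons with no size required. Of 21 further remodeller genes, 8 rose and 1 fell in dedifferentiated cells and 5 rose and 1 fell in ES cells. Hells, which supports DNA methylation, rose by 2.4 and 1.75, Baz2a, of the nucleolar remodeller, by 1.72 and 2.06, and the CHD paralog Chd3 fell, at -2.14 and -1.97.

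Of the 3 listed NuRD and deacetylase genes, 0 passed the limma test with the size required in either comparison with fibroblasts (1 and 2 had an unadjusted p under 0.05). With no size required, 1 and 2 had an adjusted p under 0.05. Mbd3, the NuRD subunit whose loss impairs ES differentiation, read 9.39, 9.53 and 9.46 on fibroblast arrays, 9.46, 9.63 and 9.53 on dedifferentiated arrays and 8.92, 8.82 and 8.84 on ES arrays. The fibroblast and dedifferentiated arrays overlapped, and the ES arrays lay below both. The difference was 0.08 in dedifferentiated cells (-0.09 to 0.25, adjusted p = 0.45) and -0.59 in ES cells (-0.77 to -0.42, adjusted p = 4.3e-05). Mbd2, which takes its place in another form of NuRD, fell, at -1.53 and -1.7. Hdac1 differed by 0.67 (0.48 to 0.85) and 0.43 (0.25 to 0.61), with a further row of the same gene at 0.64 and 0.42, while Hdac2 differed by 0.1 (-0.15 to 0.35) and 0.11 (-0.15 to 0.36). Of 20 further genes of this group, 7 rose and 2 fell in dedifferentiated cells and 6 rose and 2 fell in ES cells; the NAD-dependent deacetylase Sirt1 rose by 3.08 and 2.17, the mainly cytoplasmic Hdac6 by 2 and 2.64, and the class IIa deacetylase Hdac7 fell, at -2.08 and -1.78. In all, 99 genes outside the 44 were listed with these complexes and had a row. In dedifferentiated cells 31 rose and 7 fell (31.3% and 7.07%, beside 8.79% and 10.1% of all genes). In ES cells 24 rose and 6 fell (24.2% and 6.06%, beside 8.85% and 10.4%). Among genes with a mean of at least 6 in some group the shares were 16.8% and 18.5%, then 16.8% and 19.1%. These shares also stand beside the counts that rose and fell in each complex above. Median differences of the 99 were 0.49 and 0.48 log2 units. The lists were written with earlier results of these data known.

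Differences between dedifferentiated and ES cells were fewer and smaller, on the list as on the whole array. By limma 0 of 42 genes differed by at least 1 log2 unit at an adjusted p under 0.05 (1.01% of all genes were higher and 0.547% lower), and 16 (38.1%) had an unadjusted p under 0.05, beside 30.5% of all genes. Intervals of 95% stayed inside 1 log2 unit either side of 0 for 41 of 42 genes (97.6%, beside 96.2% of all genes), and within 1.5-fold for 34, beside 16087 of all 19938 genes, so these counts lay near the background of all genes. Kdm4c was the exception for the wider margin, with an interval of -1 to -0.61. Among the 9606 genes with a mean of at least 6 in some group, 93.1% stayed inside 1 log2 unit, beside 97.6% of the 41 listed genes at that level. Within 1.5-fold it was 6559 of 9606, beside 33 of 41. An unadjusted p under 0.05 was found for 50.9% of those genes and 39.0% of the 41. With no size required, 8 genes were higher and 2 lower in dedifferentiated cells, 10 in all (23.8%), beside 21.3% of all genes. Among genes with a mean of at least 6 in some group the share was 37.6%, above the 24.4% of the 41 listed genes that reach that level. The dedifferentiated and ES arrays did not overlap for 17 of 42 genes, beside 32.6% of all genes; above the mean of 6 it was 41.5% of listed genes and 52.2% of all.

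**Figure D4:**
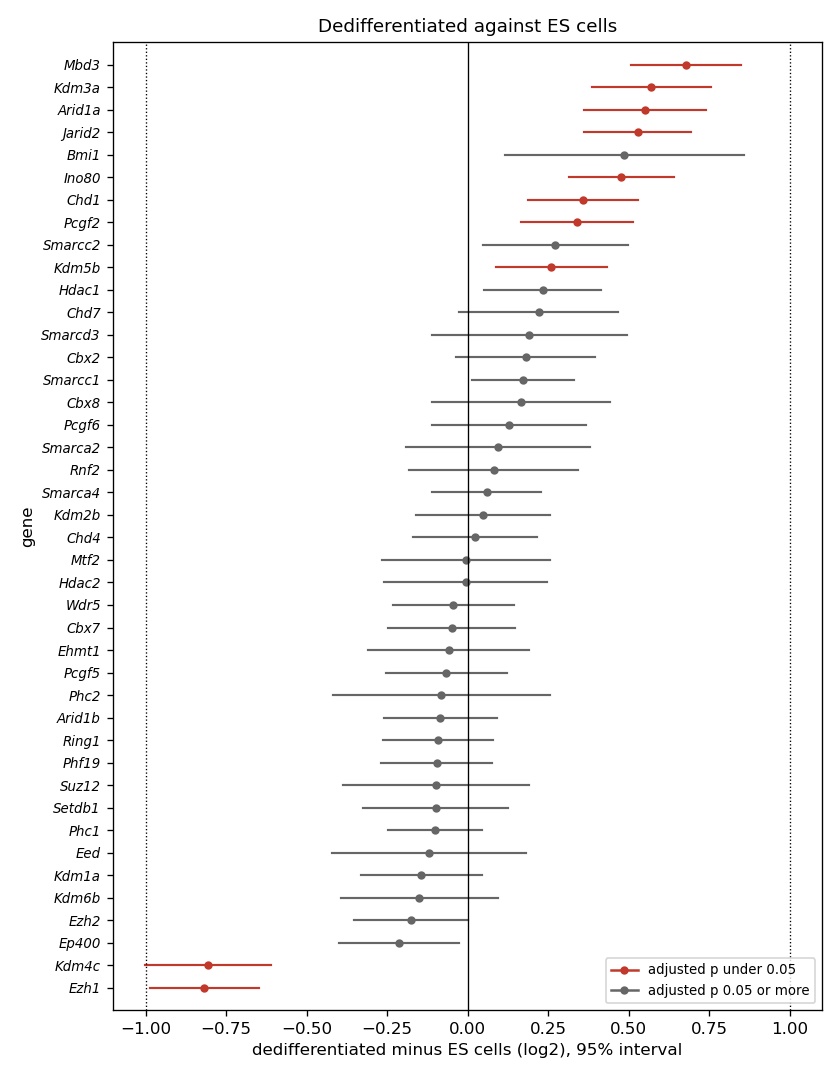
Difference of dedifferentiated minus ES cells for each of the 42 genes (log2, horizontal axis) with its 95% interval from limma; red marks an adjusted p under 0.05 and dotted lines mark 1 log2 unit. Ezh1 and Kdm4c lie to the left, at -0.82 and -0.81, and Mbd3, Kdm3a, Arid1a and Jarid2 lie farthest to the right, at 0.68 to 0.53.

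The 2 genes lower in dedifferentiated than in ES cells were Ezh1, by -0.82 log2 units (95% interval -0.99 to -0.65, adjusted p = 4e-05), and Kdm4c, by -0.81 (adjusted p = 0.00011). In both, the dedifferentiated arrays lay between those of fibroblasts and ES cells. The 8 higher genes were Mbd3 at 0.68 (0.51 to 0.85, adjusted p = 0.00014), Kdm3a at 0.57 (0.39 to 0.75), Arid1a at 0.55 (0.36 to 0.74), Jarid2 at 0.53 (0.36 to 0.69), Ino80 at 0.48 (0.32 to 0.64), Chd1 at 0.36 (0.19 to 0.53), Pcgf2 at 0.34 (0.16 to 0.51) and Kdm5b at 0.26 (0.09 to 0.43). Of these, Mbd3 was the gene whose dedifferentiated arrays overlapped with fibroblasts, and in the other 7 the dedifferentiated arrays were the highest of the 3 groups. Of the 4 genes with the largest rises from fibroblasts, Jarid2 was thus higher in dedifferentiated cells, and the other intervals included 0: Phc1 differed by -0.1 (-0.25 to 0.04), Cbx7 by -0.05 (-0.25 to 0.15) and Mtf2 by -0.01 (-0.27 to 0.25). Bmi1, with its wide spread among ES arrays, was less well placed, at 0.49 (0.11 to 0.86, adjusted p = 0.066). All 30 rows of Chd7 were on the same side, higher in dedifferentiated cells by 0.09 to 0.61 log2 units, though the brightest row differed by 0.22 (-0.03 to 0.47, adjusted p = 0.22). The rows of Chd7 share the same arrays, so their agreement is not separate evidence of a difference.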

How the data were processed

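Total RNA of 9 samples, 3 per group, was hybridised to Affymetrix Mouse Gene 1.0 ST arrays, 1 array per sample. The deposited table holds log2 expression values that the authors made with RMA in Affymetrix Expression Console 1.1, per the submitters' processing notes. RMA gives the probe intensities of all arrays 1 distribution before they are summarised, so a shift common to most genes would be largely removed. The summarised values do not share 1 distribution exactly, with array medians of 4.647 to 4.859. Of 35557 rows, 21789 map to 1 symbol in the platform annotation, 1621 to several and 12147 are unlisted; the brightest row of each of 19938 genes was used. The members and the lists by complex were chosen with earlier results of these data known.

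All 9 arrays entered 1 linear model (limma 3.58.1, R 4.3.3), with Benjamini-Hochberg adjustment over 19938 genes. A gene rose or fell at an adjusted p under 0.05 and at least 1 log2 unit. Intervals are 95% intervals of the model, not adjusted for the number of genes. Genes outside the list were named where they had the largest called rise or fall of a complex list, or belonged to a pair. The within-array difference of a pair was compared by exact permutation. On data simulated for dedifferentiated cells against fibroblasts over 19938 genes, 0 of 67 genes shifted by 0.5 log2 units, 65 of 67 shifted by 1.5 and 66 of 66 shifted by 3 were called. A shift of 0.5 lies under the required 1 log2 unit, so that size keeps it from being called and the 0 does not measure power. The alternatives varied the normalization, the dim-gene filter, the row choice, the variance model, the samples fitted, the replicate block, the size required and each array in turn.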

Additional observations from a re-analysis of the deposited data

How the results depend on the processing

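The counts of genes that rose and fell stayed within 1.5 times under every alternative run except the smaller size. At 1.5-fold, 7 genes were lower in ES cells than in fibroblasts, and 1 was higher and 2 were lower in dedifferentiated than in ES cells. With each array left out in turn, 17 to 18 genes rose and 4 fell in dedifferentiated cells, 18 to 20 rose and 4 fell in ES cells, and 0 passed between the 2. The replicate block left the counts at 18 and 4, 20 and 4, and 0 and 0. Same-numbered fibroblast and dedifferentiated arrays correlated in their deviations from the group means at 0.101, 0.154 and 0.038, fibroblast and ES arrays at -0.163, -0.204 and 0.25, and dedifferentiated and ES arrays at -0.126, -0.166 and 0.055, so the numbers were not taken as pairs. The shifts of the 14 pairs against fibroblasts kept their direction with each array left out and with the mean of all rows of a gene. Between dedifferentiated and ES cells 3 small shifts changed sign with an array left out: Pcgf2 against Bmi1 ranged from -0.36 to 0.092, Phc1 against Phc2 from -0.23 to 0.086 and Smarca4 against Smarca2 from -0.17 to 0.164. The differences of single genes that changed sign were all small and uncalled. With median centring, Ring1 was at -0.0037 in ES cells against fibroblasts, and Mtf2 at 0.0044 and Hdac2 at 0.0042 in dedifferentiated against ES cells. With quantile normalization, Smarca4 was at -0.0025 and Chd4 at -0.047 in the latter comparison. With arrays left out, Ring1 ranged from -0.025 to 0.046 in ES cells against fibroblasts. In dedifferentiated against ES cells Mtf2 then ranged from -0.092 to 0.087, Hdac2 from -0.11 to 0.067, Rnf2 from -0.026 to 0.139, Phc2 from -0.207 to 0.133, Kdm2b from -0.029 to 0.120, Ehmt1 from -0.147 to 0.062, Smarca2 from -0.058 to 0.215 and Chd4 from -0.044 to 0.079. The cause was not tested. With 3 arrays per group, and no true zero on an array, small differences and dim genes such as Phf19 and Cbx8 are the least certain.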
